A study of Homo sapiens with 24 samples.

Results

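The 3 libraries of one sgRNA against the GATA1 transcription start site, GATA1TSS-Guide1, were set against 4 libraries of non-targeting (NC) sgRNAs, which makes 7 of the 24 libraries of the series. The 4 control libraries were replicates 2 and 3 of NC-Guide3 and replicates 2 and 3 of NC-Guide4. They are called the matched controls here, because they were chosen by measured expression, after the data had been seen, as the controls whose overall state lay nearest to that of the targeted libraries. The p-values against the 4 do not account for that choice. Genes called against the 4 are therefore also given against all 12 NC libraries, a grouping that the labels set alone, by value or within a range.

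All groups were K562 cells, a human erythroleukaemia line, and the controls carried and received the same as the others: Cas9 with no nuclease activity, fused to a KRAB repressor domain and switched on with doxycycline for 24 hours, together with 1 transduced sgRNA. The groups used were GATA1TSS-Guide1 (3 libraries), GATA1TSS-Guide2, the second sgRNA for the same start site (3), eHDAC6-Guide1 and eHDAC6-Guide2, which target a putative enhancer of GATA1 (6), the 4 matched controls and the other 8 NC libraries. RNA came from 10000 lysed cells per library, and the design text calls the 3 replicates of each sgRNA biological. GATA1TSS-Guide1 is a single sgRNA. Its replicate error holds no variation between sgRNAs, and what follows from less GATA1 cannot be told apart from what this sgRNA may do elsewhere. GATA1TSS-Guide2 gives a second reading. Where controls are used, however, they are the same libraries for both sgRNAs, so an offset of those controls would enter both readings.

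GATA1 is a zinc-finger transcription factor that binds the WGATAR motif and, with partners such as TAL1, LMO2, LDB1 and KLF1, directs the erythroid and megakaryocyte programmes. Globins, heme synthesis enzymes and red cell membrane proteins are among its known targets, and K562 cells depend on it. In CRISPR interference the KRAB domain recruits silencing proteins to the site the sgRNA pairs with, and transcription from a promoter there is lowered rather than abolished. ATF4, the transcription factor of the amino acid stress response, drives enzymes of serine, asparagine and one-carbon metabolism, amino acid transporters and tRNA synthetases, a programme that comes up in several results below.

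The promoter windows of 5 genes are shown: the targeted gene, a gene that fell with this sgRNA and was higher with GATA1TSS-Guide2, and 3 genes that fell, picked for a match to a GATA or ATF4 motif. Each runs 5′ to 3′ from 250 bases before to 50 after a transcript start (RefSeq, build GRCh38.p14). GATA1 lies at chrX:48786340-48786639 on the plus strand, ZBTB1 at chr14:64503637-64503936 on the plus strand, KLF1 at chr19:12887152-12887451 on the minus strand, RAB3IL1 at chr11:61920235-61920534 on the minus strand and ASNS at chr7:97872359-97872658 on the minus strand.
GATA1: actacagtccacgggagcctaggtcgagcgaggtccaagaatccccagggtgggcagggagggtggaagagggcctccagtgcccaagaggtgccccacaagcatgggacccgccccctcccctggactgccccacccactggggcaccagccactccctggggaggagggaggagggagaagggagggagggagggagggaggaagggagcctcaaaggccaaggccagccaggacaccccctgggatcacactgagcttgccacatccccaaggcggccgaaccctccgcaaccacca
ZBTB1: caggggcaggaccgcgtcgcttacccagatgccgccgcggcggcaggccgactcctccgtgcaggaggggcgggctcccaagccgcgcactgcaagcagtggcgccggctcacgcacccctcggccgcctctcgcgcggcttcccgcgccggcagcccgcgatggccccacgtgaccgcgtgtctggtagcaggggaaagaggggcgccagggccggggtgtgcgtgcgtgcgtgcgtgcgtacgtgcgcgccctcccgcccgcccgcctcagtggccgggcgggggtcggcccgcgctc
KLF1: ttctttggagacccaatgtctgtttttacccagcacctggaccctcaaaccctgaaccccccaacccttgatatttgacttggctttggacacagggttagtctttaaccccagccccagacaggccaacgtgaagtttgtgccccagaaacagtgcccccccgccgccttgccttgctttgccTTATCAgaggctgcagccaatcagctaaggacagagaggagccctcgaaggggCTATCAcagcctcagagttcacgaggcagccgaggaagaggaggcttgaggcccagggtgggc
RAB3IL1: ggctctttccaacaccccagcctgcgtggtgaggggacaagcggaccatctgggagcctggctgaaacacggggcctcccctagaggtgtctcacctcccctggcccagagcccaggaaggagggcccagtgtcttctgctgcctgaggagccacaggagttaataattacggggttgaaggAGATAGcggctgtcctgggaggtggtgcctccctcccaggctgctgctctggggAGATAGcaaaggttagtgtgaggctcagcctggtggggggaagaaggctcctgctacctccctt
ASNS: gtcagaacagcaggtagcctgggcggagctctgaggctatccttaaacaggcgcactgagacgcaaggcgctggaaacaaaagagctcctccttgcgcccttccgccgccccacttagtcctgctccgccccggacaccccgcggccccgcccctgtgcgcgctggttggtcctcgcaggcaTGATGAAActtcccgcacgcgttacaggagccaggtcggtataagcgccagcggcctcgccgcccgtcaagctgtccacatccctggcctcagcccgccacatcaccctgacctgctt
Capitals mark GATA motifs (the letters GATA with A or T before them and A or G after them, on either strand) in the first 4 and the CARE motif of ATF4 (TGATGNAA on either strand) in ASNS. KLF1 held TTATCA at -66 and CTATCA at -13 from the start, RAB3IL1 held AGATAG at -68 and at -14, and ASNS held TGATGAAA at -68. The GATA1 window and both annotated ZBTB1 windows held no GATA motif of these letters. Of 13147 genes tested, 9200 matched a promoter by symbol, and taking 1 window a gene, 1529 of them (16.6%) held a GATA motif, as did 25.0% of all 35116 windows in the table. Among the genes called against the matched controls, 3 of 10 matched genes that fell and 5 of 22 that rose held one. The CARE motif was in 1 of the 10 and 0 of the 22, against 1.71% of the matched genes tested and 3.62% of all windows. The other annotated ASNS window and those of PSAT1 and MTHFD2, which also fell, held no CARE motif. CCACACCC, the core of the motif bound by KLF1, was in 0 of the 10 and 0 of the 22, against 3.21% of the matched genes tested, and the E-box CACGTG in 1 of the 10 and 3 of the 22, against 9.94%. A match is a description of the letters and no evidence of binding.

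Total counts ran from 19204390 to 20837877 with GATA1TSS-Guide1 and from 13407605 to 15629571 in the matched controls, so the targeted libraries were the deeper ones throughout. TMM scaling factors in these 7 libraries lay between 0.985 and 1.015. On principal component 1 of the NC libraries (26.1% of their variance) the GATA1TSS-Guide1 libraries lay between -15.6 and -12.1, the matched controls between -28.9 and -17.2, and the other 8 NC libraries between 7.38 and 13.3. The targeted libraries thus did not overlap the matched controls on it, and NC-Guide3 replicate 3, at -28.9, stood furthest out. The erythroid label held: the 7 measured of 8 erythroid markers summed to 7579 to 10274 CPM (counts scaled to a common library total) with GATA1TSS-Guide1 and 7467 to 8585 CPM in the matched controls. The 5 megakaryocyte markers summed to 37.7 to 45.4 CPM with GATA1TSS-Guide1, against 38.5 to 44.0 CPM in the matched controls, with PF4 at 0 in all 7 libraries. The 5 myeloid markers summed to 172 to 178 CPM with GATA1TSS-Guide1 and 165 to 177 CPM in the matched controls, the 4 lymphocyte markers to 6.29 to 7.80 and 6.60 to 7.25 CPM, and the 6 fibroblast and epithelial markers to 64.0 to 73.3 and 58.7 to 71.9 CPM. TFRC was not analysed here. In bulk RNA a change in the number of cells of a type and a change in the RNA per cell cannot be told apart.

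GATA1 itself (chromosome X, 48644982 to 48652717, plus strand, 6 exons, hg19) fell, to a level above that of GATA1TSS-Guide2 and below that of the eHDAC6 sgRNAs. It stood at 130, 96.1 and 123 CPM with GATA1TSS-Guide1, against 359, 371, 381 and 352 CPM in the matched controls. The groups did not overlap, and replicate 2 held the least GATA1 of the 3. GATA1TSS-Guide2 gave 60.2, 42.1 and 57.0 CPM, the eHDAC6 libraries 242 to 267 CPM (median 254), and the other 8 NC libraries 280 to 394 CPM (median 371). Mean GATA1 was 31.8% of that of the matched controls with GATA1TSS-Guide1 and 14.5% with GATA1TSS-Guide2. The log2 fold change of GATA1TSS-Guide1 was -1.65 (SE 0.10) against the matched controls and -1.64 against all 12 NC libraries (edgeR's quasi-likelihood test, adjusted p = 1.69e-11, by Benjamini and Hochberg). It differed from GATA1TSS-Guide2 by 1.10 (SE 0.11) and from the eHDAC6 sgRNAs by -1.12 (SE 0.10) on the log2 scale, in the order by which the sgRNA was called moderate, so no test is given for it.

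HDAC6, a cytoplasmic deacetylase of tubulin, starts 15.5 kb downstream of the GATA1 start on the same strand (48660487 to 48683380). It rose to 230, 240 and 211 CPM with GATA1TSS-Guide1, against 146, 173, 160 and 165 CPM in the matched controls. All 3 targeted libraries lay above the 4, and above all 12 NC libraries. The log2 fold change was 0.50 (SE 0.09, edgeR adjusted p = 0.00490), and 0.38 against all 12 (edgeR adjusted p = 0.00329). Without replicate 2 of GATA1TSS-Guide1 the value was 0.46, which edgeR did not call (adjusted p = 0.0647). The annotation holds 74 genes that start within 1000 kb of GATA1. Of these 69 passed the filter, including 22 GAGE copies whose reads cannot be assigned with certainty, and 1 fell (GATA1) while 2 rose (HDAC6 and ERAS), where 0.35% of all genes tested were called. ERAS, a Ras-like GTPase 39.9 kb away, had 17, 10 and 10 counts (0.804, 0.503 and 0.517 CPM) with GATA1TSS-Guide1, against 0 counts in each of the 4 matched controls. Set against a floor of 3 counts over the 4 together, ERAS was at least 11.5-fold higher. The other 8 NC libraries held 0.124 to 1.0 CPM of it, around the targeted level, and against all 12 it was not called (log2 1.35, edgeR adjusted p = 0.0850).

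**Figure D1:**
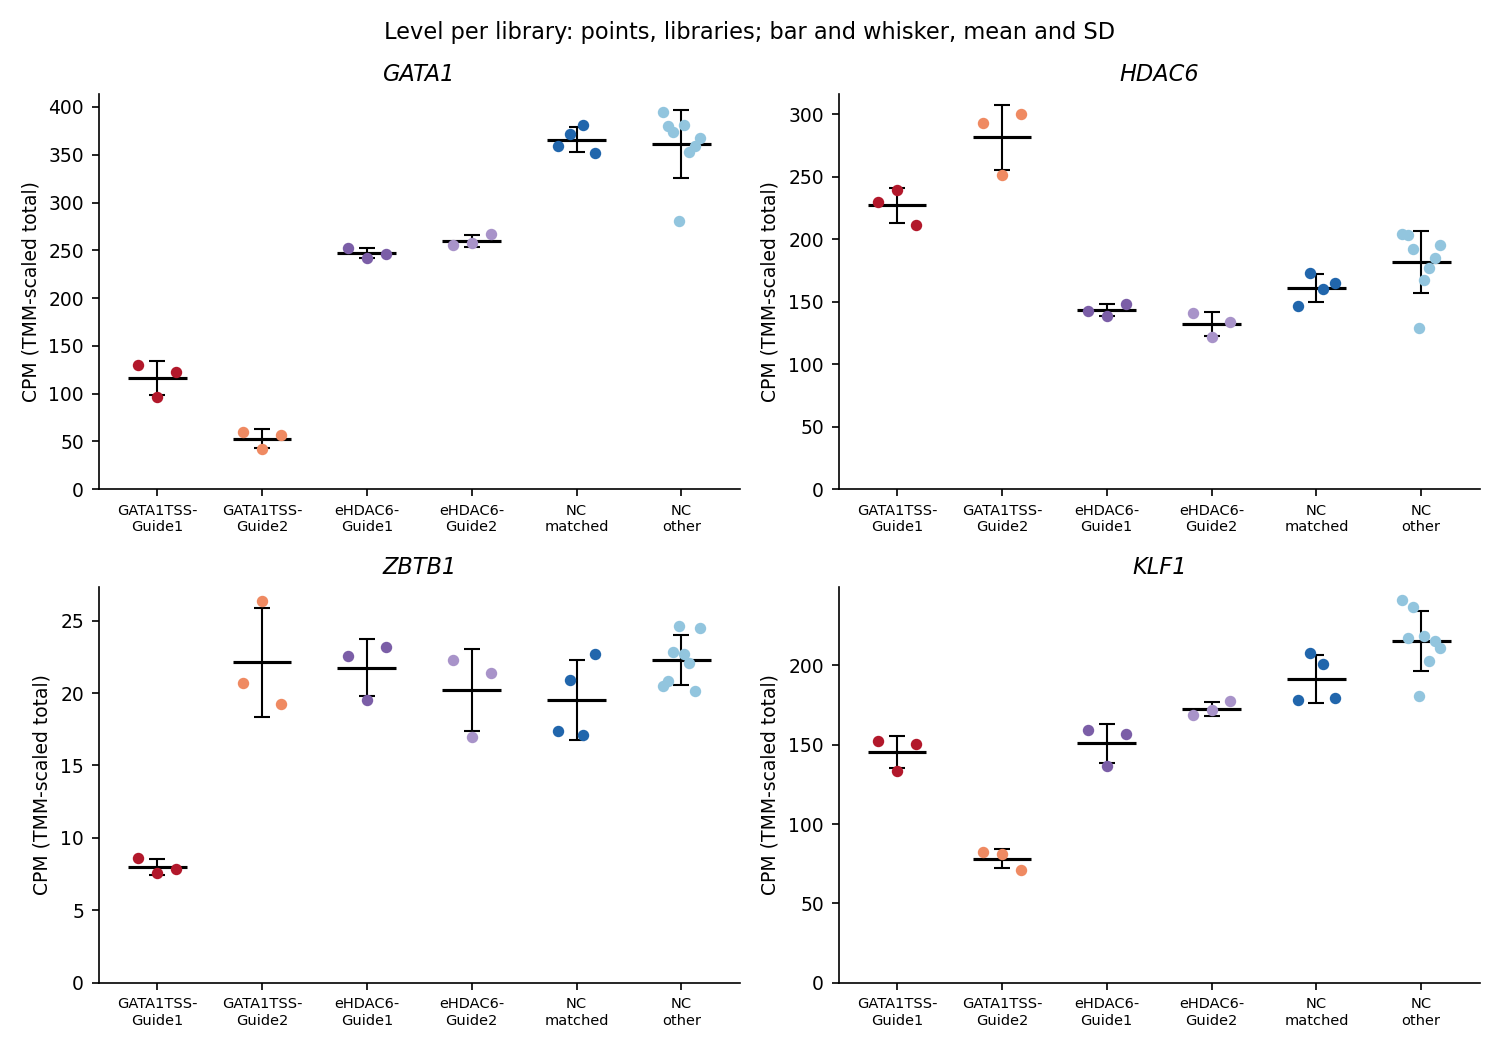
CPM (vertical axis, from 0) of GATA1, HDAC6, ZBTB1 and KLF1 in each of the 24 libraries (points) by group along the horizontal axis, with the mean as a bar and the SD as a whisker. GATA1 with GATA1TSS-Guide1 sits at 96.1 to 130 CPM, between GATA1TSS-Guide2 and the eHDAC6 sgRNAs, while ZBTB1 is at 7.55 to 8.60 CPM with this sgRNA and at 17.0 CPM or more in every other library.

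Across all genes the difference from the matched controls was small. Of 13147 genes tested, 46 were called at an adjusted p under 0.05 with edgeR (0.35%), of which 29 rose (0.221%) and 17 fell (0.129%). At an unadjusted p under 0.05 there were 1037 (7.89%). Against all 12 NC libraries 1579 genes were called (12%), 817 higher (6.21%) and 762 lower (5.8%), a comparison in which the 8 other controls carry their own expression state. Of the 46 genes, 35 were called in the same direction against all 12 (0.266% of genes tested), 18 higher and 17 lower, 0 in the opposite direction, and 11 were not called. Both comparisons use the same GATA1TSS-Guide1 libraries and share the 4 controls, so they are 2 readings of one set of cells. All 35 had no overlap with the 4 matched controls, as did 9.51% of all genes tested (4.33% higher and 5.18% lower), and 31 of them had no overlap with any of the 12, as did 1.57% (higher) and 1.7% (lower) of all genes tested. Among the 35 the rises ran from 0.29 to 1.51 and the falls from -0.26 to -1.65 on the log2 scale.

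**Figure D2:**
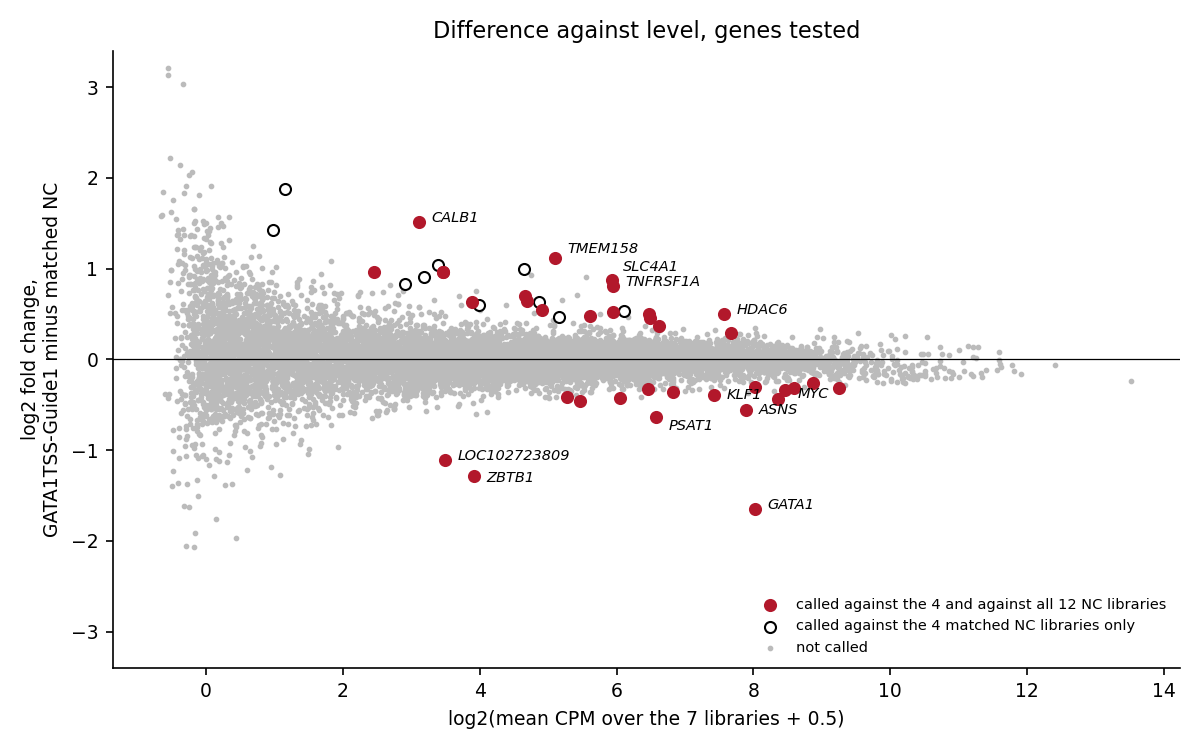
Log2 fold change of GATA1TSS-Guide1 minus matched controls (vertical axis) against log2 of the mean CPM over the 7 libraries plus 0.5 (horizontal axis), 1 point a gene tested. Filled points are the 35 genes called against the 4 and against all 12 NC libraries, open points those called against the 4 only (ERAS, which has 0 counts in the 4, lies outside the axis), and GATA1 and ZBTB1 lie lowest among the called genes.

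How far the 46 calls hold depended on single libraries, and on 1 in particular. Left out in turn, the 7 libraries gave counts of 11 without replicate 2 of GATA1TSS-Guide1, 46 without replicate 1 and 27 without replicate 3. Without NC-Guide3 replicate 2 or 3 the counts were 40 and 29, and without NC-Guide4 replicate 2 or 3 they were 30 and 23. Replicate 2, the one with least GATA1, also lay furthest from the matched controls of the 3 targeted libraries in 36 of the 46 called genes (78.3%), and in 38.0% of all genes tested. On principal component 1 it was also the targeted library nearest to the other 8 NC libraries, at -12.1, against -15.2 for replicate 1 and -15.6 for replicate 3. The part of its lower GATA1 or of that expression state in this was not tested. Calls that held in all 7 of those fits and under every other scaling, filter, model and test were those of 9 genes: the falls of GATA1, ZBTB1, LOC102723809, PSAT1 and ASNS, and the rises of CALB1, TMEM158, TNFRSF1A and SOSTDC1. Among the 35, the calls of RYBP, EPHX2, IARS and GPR85 were lost in all 7 of the fits without a library. Between the 2 NC sgRNAs within the matched controls, NC-Guide3 minus NC-Guide4, edgeR called 0 genes, with 758 (5.77%) at an unadjusted p under 0.05 and 8 by DESeq2.

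ZBTB1 was the second largest fall, and was low with this sgRNA alone among the 8. The gene encodes a BTB zinc-finger transcriptional repressor known for its role in lymphoid development and, in leukaemia cells, in sustaining ASNS expression. It lies on chromosome 14, 64971292 to 65000408, plus strand, hg19. ZBTB1 stood at 8.60, 7.55 and 7.86 CPM with GATA1TSS-Guide1, against 17.4, 20.9, 17.1 and 22.7 CPM in the matched controls. GATA1TSS-Guide2, with less GATA1, gave 20.7, 26.4 and 19.3 CPM, the eHDAC6 libraries 17.0 to 23.2 CPM (median 21.8) and the other 8 NC libraries 20.1 to 24.6 CPM (median 22.4). The 3 GATA1TSS-Guide1 libraries thus lay below all other 21 libraries. The log2 fold change was -1.28 (SE 0.13, edgeR adjusted p = 1.76e-06) and -1.41 against all 12 (edgeR adjusted p = 4.69e-08). The direct difference from GATA1TSS-Guide2 was -1.42 (edgeR adjusted p = 7.18e-07) and that from the eHDAC6 sgRNAs -1.39 (edgeR adjusted p = 8.99e-08), neither of which uses a control library.

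Its neighbours moved less. LOC102723809, whose exons overlap those of ZBTB1 on the other strand, fell by 1.11 on the log2 scale (edgeR adjusted p = 2.76e-05; -1.26 against all 12), from reads that may be those of ZBTB1, since it is not stated whether the counting used strand. ZBTB25, which also overlaps ZBTB1 on the other strand and starts 0.639 kb away, stood at -0.29 (edgeR adjusted p = 0.126), and at -0.21 against all 12, where it was called (edgeR adjusted p = 0.0408). Of 20 genes with a start within 500 kb of that of ZBTB1, 15 were tested, and the 13 other than ZBTB1 and LOC102723809 ranged from -0.68 to 0.41 with none called against the matched controls. Against all 12, ZBTB25, MIR7855 (-1.04), SPTB (-0.78) and CHURC1 (-0.34) were called lower among these 13, with 5.8% of all genes tested called lower. Whether GATA1TSS-Guide1 also pairs near ZBTB1 was not tested.

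Among transcription factors of the erythroid programme, KLF1 fell. KLF1, the erythroid Krüppel-like factor (chromosome 19, 12995237 to 12998017, minus strand), stood at 152, 134 and 150 CPM with GATA1TSS-Guide1, against 178, 208, 201 and 179 CPM in the matched controls. The groups did not overlap, and GATA1TSS-Guide2 lay lower still, at 82.2, 81.4 and 71.3 CPM. Its log2 fold change was -0.40 (SE 0.08, edgeR adjusted p = 0.0191), -0.51 against all 12 (edgeR adjusted p = 0.000277), and it did not pass without replicate 2 or 3 of GATA1TSS-Guide1, NC-Guide3 replicate 3 or NC-Guide4 replicate 2 (edgeR adjusted p from 0.0723 to 0.222). Against the matched controls KLF1 was the only called member among 14 erythroid regulators tested, GATA1 apart, where 0.129% of all genes tested fell. The median of the 14 was -0.03, against 0.00 over all genes tested. Against all 12 NC libraries 6 of the 14 were called lower, among them EPOR (-0.49), LMO2 (-0.30) and LDB1 (-0.23), and 2 higher, with 5.8% and 6.21% of all genes tested. Against the matched controls EPOR, the erythropoietin receptor, stood at -0.39 (edgeR adjusted p = 0.278), LDB1 at -0.25, and TAL1, NFE2 and LMO2 between -0.05 and 0.02. NFE2, a basic leucine zipper factor of globin genes, had 376, 368 and 367 CPM with GATA1TSS-Guide1, against 352, 408, 371 and 359 CPM in the matched controls, which overlap throughout. GATA2, the progenitor GATA factor that GATA1 is known to repress, stood at -0.01, and none of the 6 progenitor regulators tested was called. Against all 12, GATA2 was called higher (0.32, edgeR adjusted p = 0.0242), as was 1 other of the 6, ETV6 (0.39).

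MYC, the growth-promoting transcription factor, fell too. It stood at 314, 304 and 304 CPM with GATA1TSS-Guide1, against 415, 380, 385 and 373 CPM in the matched controls. The groups did not overlap, and GATA1TSS-Guide2 had 209, 208 and 217 CPM. The log2 fold change of MYC was -0.34 (SE 0.06, edgeR adjusted p = 0.00357), and -0.46 against all 12 (edgeR adjusted p = 4.12e-05). It was narrowly not called without replicate 2 (edgeR adjusted p = 0.0506). The 7 other members of the MYC network tested, among them MAX, MNT and MXI1, ranged from -0.18 to 0.06 with none called against the matched controls. RAB3IL1, a Rab guanine nucleotide exchange factor, fell to 36.6, 34.9 and 36.6 CPM, against 51.4, 54.3, 46.1 and 47.0 CPM in the matched controls (log2 -0.46, SE 0.09, edgeR adjusted p = 0.00792; -0.33 against all 12). GATA1TSS-Guide2 had 20.1, 23 and 20.4 CPM of it. The remaining falls outside amino acid metabolism were RYBP, a Polycomb protein (-0.43), PTK7, a pseudokinase receptor (-0.41), STAR, the steroidogenic cholesterol carrier (-0.37), EPHX2, a soluble epoxide hydrolase (-0.32), and NMU, the peptide neuromedin U (-0.32), which each held against all 12, at -0.34 to -0.60.

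Several falls were in genes of amino acid synthesis and tRNA charging. PSAT1, a transaminase of serine synthesis, stood at 83.7, 62.6 and 70.1 CPM with GATA1TSS-Guide1, against 122, 111, 110 and 106 CPM in the matched controls. ASNS, asparagine synthetase, stood at 201, 176 and 183 CPM with GATA1TSS-Guide1, against 299, 285, 253 and 265 CPM in the matched controls. Neither overlapped between the groups, and replicate 2 was lowest for both. Their log2 fold changes were -0.64 (SE 0.08) and -0.56 (SE 0.07), with the same edgeR adjusted p of 8.64e-05. The other 8 NC libraries held far more of them, 326 to 367 CPM of PSAT1 (median 344) and 840 to 1121 CPM of ASNS (median 902), so that against all 12 the log2 fold changes were -1.84 and -1.87. That gap between control libraries is part of what set the 4 apart. The size of these falls is therefore a matter of the controls chosen. Since the other 8 lay above the 4, the same direction against the 12 and the 8 adds no support to these falls.

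Of 13 genes of amino acid and one-carbon synthesis tested, 3 fell (PSAT1, ASNS and MTHFD2, the mitochondrial folate dehydrogenase, at -0.31), none rose, and 12 lay below 0, with a median of -0.31, where 0.129% of all genes tested fell. Of 17 cytosolic tRNA synthetases, 3 fell, WARS (-0.44), GARS (-0.32) and IARS (-0.26), none rose, and 15 lay below 0, with a median of -0.20. WARS charges tryptophan, GARS glycine and IARS isoleucine. Of the 7 fits without a library, the call held in 2 for WARS, 4 for GARS, 1 for MTHFD2 and 0 for IARS. Against all 12 the values were -1.33 for WARS, -0.92 for GARS, -0.73 for IARS and -0.90 for MTHFD2. For these genes too, each of the other 8 NC libraries lay above the 4 matched controls. The direction against all 12 therefore adds no support to their falls. Of 10 amino acid transporters none was called and 9 lay below 0 (median -0.24, 8 at an unadjusted p under 0.05), the furthest being SLC7A11, the cystine carrier, at -0.43 (edgeR adjusted p = 0.248). Of 11 stress response factors none was called and all 11 lay below 0 (median -0.25), for example CHAC1, which degrades glutathione, at -0.55, and DDIT3, the factor CHOP, at -0.26. For all genes tested the median was 0.00, 6550 of 13147 lay below 0 and 517 were below 0 at an unadjusted p under 0.05. Against all 12 NC libraries 11 of the 13, 11 of the 17, 9 of the 10 and 10 of the 11 were called lower, as were 5.8% of all genes tested, and 1 tRNA synthetase, VARS, was called higher (0.24). The list medians against all 12 were -0.90, -0.54, -0.64 and -0.73, in that order, further below 0 than against the 4. These counts thus carry the gap between the control libraries and add no support to the shift. The other targeted groups had medians below 0 too, the 2 eHDAC6 sgRNAs being pooled. Against the same 4 controls the eHDAC6 sgRNAs had medians of -0.30 (synthesis), -0.17 (tRNA synthetases), -0.24 (transporters) and -0.32 (stress response factors). GATA1TSS-Guide2 had -0.67, -0.28, -0.60 and -0.57, in that order. With the eHDAC6 sgRNAs pooled PSAT1 stood at -0.58 and ASNS at -0.45 against the matched controls. The 2 eHDAC6 sgRNAs were unlike, however. ASNS had 241 to 275 CPM with eHDAC6-Guide1, overlapping the matched controls (253 to 299 CPM), and 149 to 166 CPM with eHDAC6-Guide2. PSAT1 had 90.0 to 103 CPM with eHDAC6-Guide1 and 55.4 to 64.3 CPM with eHDAC6-Guide2. WARS, GARS, IARS and MTHFD2 were also lower in every eHDAC6-Guide2 library than in any of eHDAC6-Guide1. These lists share regulation, so their members are not independent of each other.

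**Figure D3:**
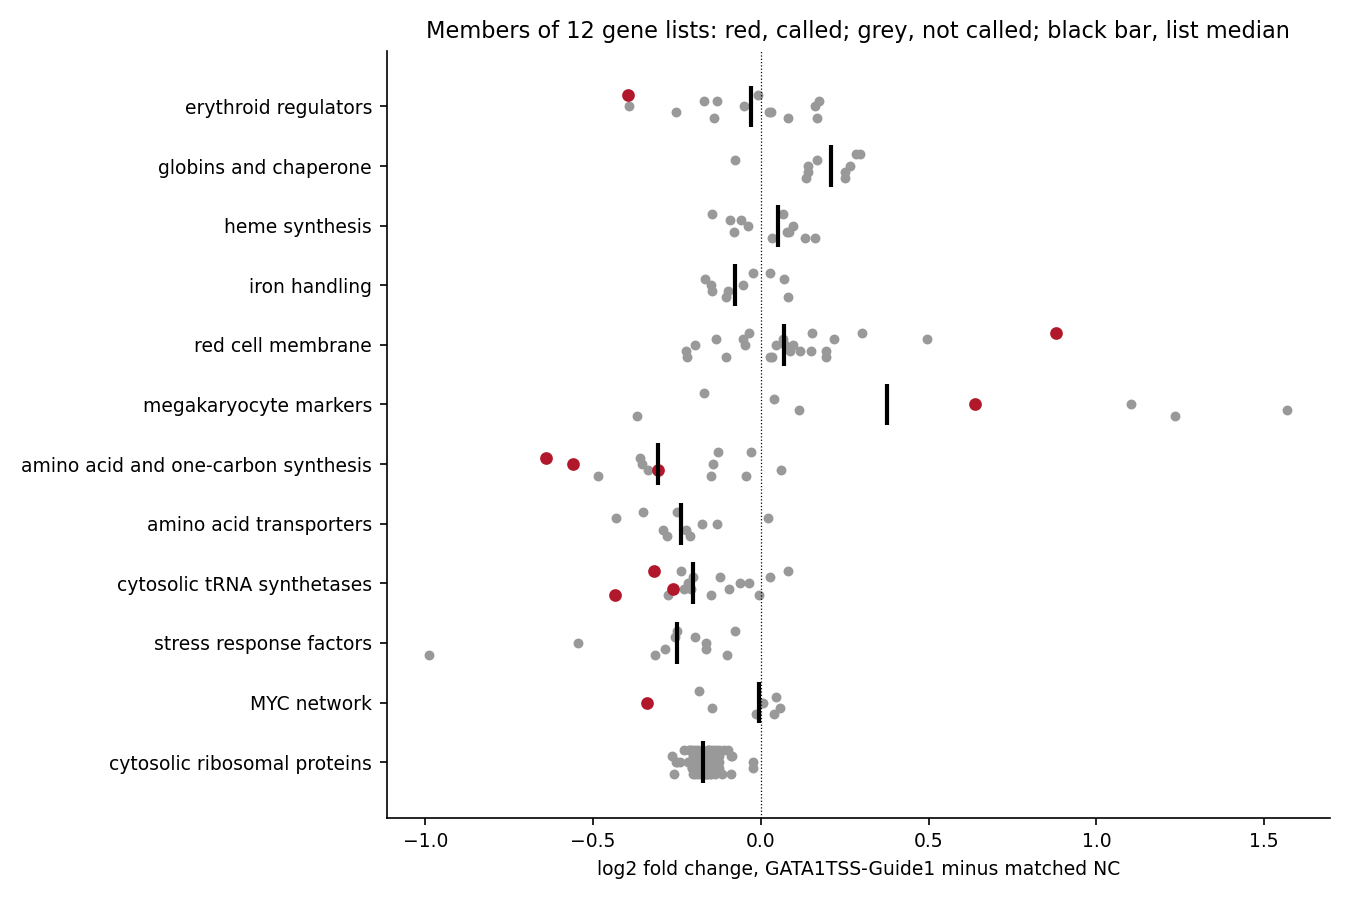
Log2 fold change of GATA1TSS-Guide1 minus matched controls (horizontal axis) for every tested member of 12 gene lists (rows), with called genes in red, other genes in grey and the list median as a black bar. The 4 lists of amino acid supply and stress response have medians of -0.20 to -0.31, globins one of 0.21, and the cytosolic ribosomal proteins form a narrow band around -0.17.

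Globin, heme and iron genes showed no call against the matched controls. Against all 12, 4 of 10 iron handling genes (FTH1, SLC11A2, STEAP3 and TF), 1 of 12 heme genes (TMEM14C) and 1 of 10 globin genes (HBQ1) were called lower, as were 5.8% of all genes tested. Of 10 genes tested, 9 globins and their chaperone AHSP, none was called and 9 lay above 0, with a median of 0.21 against the matched controls, but against all 12 that median was -0.31, so the sign depended on the controls. HBG2, a fetal gamma globin, had 2321, 3024 and 2581 CPM with GATA1TSS-Guide1, against 2278, 2620, 2268 and 2425 CPM in the matched controls. HBE1, the embryonic epsilon globin, had 2159, 2885 and 2425 CPM, against 2077, 2477, 2232 and 2287 CPM. Replicate 2 was highest for both and the groups overlapped, with log2 fold changes of 0.14 (SE 0.08) and 0.13 (SE 0.08), and of -0.32 and -0.33 against all 12, not called. HBG1 and HBG2 are near-identical, and their reads cannot be split with certainty. None of 12 heme synthesis genes was called (median 0.05), ALAS2, the erythroid enzyme of the first step, standing at 0.10. Against the matched controls none of the 10 iron handling genes was called (median -0.08). Of the 10, 4 lay below without overlap, as did 5.18% of all genes tested. The summed level of the 10 was 7453 to 7888 CPM with GATA1TSS-Guide1, against 8285 to 8570 CPM in the matched controls.

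Among red cell genes, SLC4A1 and AQP1 rose. SLC4A1, the anion exchanger also called band 3, stood at 84.1, 81.8 and 79.8 CPM with GATA1TSS-Guide1, against 34, 59.8, 42.2 and 42.7 CPM in the matched controls. The groups did not overlap, the log2 fold change was 0.88 (SE 0.16, edgeR adjusted p = 0.00650), and it was 0.52 against all 12 (edgeR adjusted p = 0.0194). SLC4A1 varied widely among the sgRNAs, however: GATA1TSS-Guide2 gave 61.3, 31.2 and 35.1 CPM, eHDAC6-Guide1 40.8, 27.1 and 29.4 CPM, eHDAC6-Guide2 80.5, 85.9 and 81.3 CPM, and the other 8 NC libraries 50.9 to 86.7 CPM (median 59.9). AQP1, the water channel of red cells, had 54.2, 61.3 and 57.5 CPM, against 40.0, 52.9, 33.7 and 40.5 CPM (log2 0.48, SE 0.10, edgeR adjusted p = 0.0302; 0.52 against all 12). AQP1 also differed between the eHDAC6 sgRNAs, with 41.8 to 48.0 CPM for eHDAC6-Guide1 and 70.8 to 73.0 CPM for eHDAC6-Guide2. Of the 7 fits without a library, the call held in 6 for SLC4A1 and in 3 for AQP1. Replicate 2 of GATA1TSS-Guide1 was needed for both calls, and AQP1 was not called with only the 7 libraries in the fit. The other 23 of 24 red cell membrane genes tested, AQP1 not among them, were not called, and the median of the 24 was 0.07. Against all 12, 6 of the 24 were called lower and SLC4A1 alone higher, with 5.8% and 6.21% of all genes tested.

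The rises outside the locus that were called against both control sets were led by genes with no shared pathway in the lists used. CALB1, the calcium buffer calbindin, stood at 10.6, 15.1 and 13.1 CPM with GATA1TSS-Guide1, against 3.70, 5.77, 4.97 and 3.75 CPM in the matched controls, and GATA1TSS-Guide2 had 35.6, 34.6 and 33.6 CPM. TMEM158, a Ras-induced membrane protein, stood at 36.3, 69.5 and 39.8 CPM, against 19.1, 18.7, 28.6 and 24.0 CPM. Replicate 2 was far above the other targeted libraries for TMEM158, and all 3 lay above all 12 NC libraries for both genes. The log2 fold changes were 1.51 (SE 0.19, edgeR adjusted p = 6.10e-05) for CALB1 and 1.12 (SE 0.17, edgeR adjusted p = 0.000487) for TMEM158, and against all 12 they were 1.25 and 0.88.

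TNFRSF1A, the main receptor of tumour necrosis factor, had 74.0, 90.6 and 77.8 CPM with GATA1TSS-Guide1, against 50.7, 40.9, 50.9 and 41.7 CPM in the matched controls (log2 0.81, SE 0.11, edgeR adjusted p = 0.000161; 0.85 against all 12). SOSTDC1, a secreted antagonist of BMP and Wnt signalling, had 31.1, 31.1 and 32.5 CPM, against 24.2, 19.7, 18.1 and 16.3 CPM (log2 0.70, SE 0.12, edgeR adjusted p = 0.00274; 0.94 against all 12). Neither overlapped with the 12 NC libraries. The eHDAC6 libraries, with a smaller loss of GATA1, stood at 56.5 to 77.9 CPM of TNFRSF1A (median 67.2) and 29.5 to 36.0 CPM of SOSTDC1 (median 32.2), which for SOSTDC1 is around the GATA1TSS-Guide1 level. GP6, the collagen receptor of platelets, was the only called one of 8 megakaryocyte markers. It had 28.4, 37.5 and 29.3 CPM, against 19.9, 16.5, 23.4 and 22.1 CPM (log2 0.64, SE 0.12, edgeR adjusted p = 0.00582; 0.89 against all 12). Of the 8, 6 lay above 0, with a median of 0.38. PLEK, the platelet protein pleckstrin, at low counts, stood highest at 1.57 (edgeR adjusted p = 0.239), and the 3 most abundant uncalled members, ITGA2B, ITGB3 and CD9, stood at 0.04, -0.17 and -0.37.

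The other rises called against both control sets were LINC00891, counted identically to LOC100132741 (0.96), S1PR3, a sphingosine-phosphate receptor whose exons overlap C9orf47 (0.96), GPR85, an orphan receptor (0.63), STARD9, a kinesin (0.54), SNCG, gamma-synuclein (0.52), MAP1A, a microtubule-associated protein (0.50), FMNL1, a formin (0.45), LUZP1, an actin-bundling protein (0.37), and SLC20A1, a phosphate carrier (0.29). Against all 12 these ran from 0.31 to 1.09. STARD9, for example, had 36.5, 37.3 and 34.5 CPM with GATA1TSS-Guide1, against 22.3, 26.4, 26.2 and 24.7 CPM in the matched controls. The 11 genes called against the 4 and not against the 12 all rose: ATM, AXL, C17orf99, CDHR3, COL1A1, EPHB6, ERAS, LOC102467080, PHLDA1, SH3BP2 and TXNDC2. Apart from ERAS and COL1A1 they were named after their values were seen. Against all 12, the 9 of them other than ERAS and C17orf99 ran from -0.0042 (SH3BP2) to 0.61 (EPHB6). For C17orf99 the sign turned (0.63 against the 4, -0.66 against the 12), with 32.9 to 40.9 CPM in the GATA1TSS-Guide1 libraries, 18.6 to 26.3 CPM in the 4 and 66.9 to 94.2 CPM in the other 8 NC libraries.

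**Figure D4:**
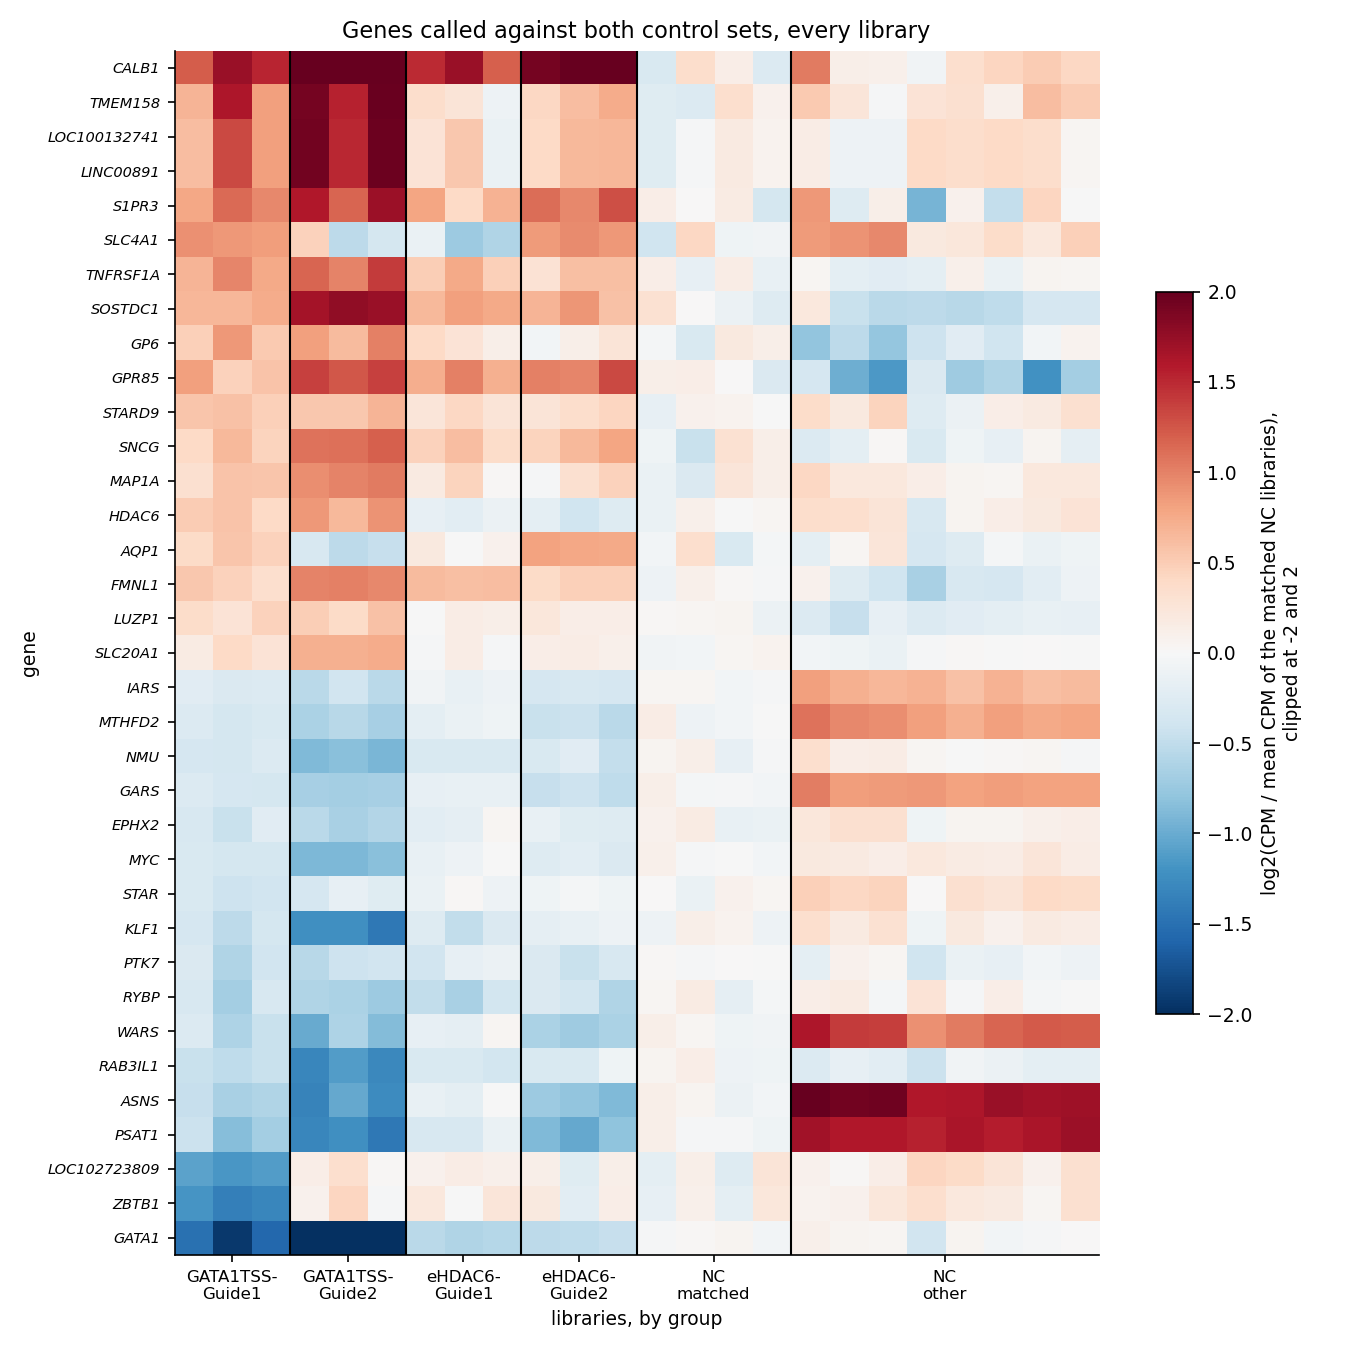
The 35 genes called against both control sets (rows, from the largest rise to the largest fall) in each of the 24 libraries (columns by group), coloured by log2 of CPM over the mean of the matched controls and clipped at -2 and 2. ZBTB1 and LOC102723809 are blue with GATA1TSS-Guide1 only, AQP1 is red with GATA1TSS-Guide1 and eHDAC6-Guide2, SLC4A1 with those and with several of the other NC libraries, and the other 8 NC libraries are deep red for ASNS and PSAT1.

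Ribosomal protein genes showed a small, even shift, with no call against the matched controls and 25 of 71 called lower against all 12 (5.8% of all genes tested). All 71 tested cytosolic ribosomal protein genes lay below 0, with log2 fold changes from -0.27 to -0.02 and a median of -0.17, and all 71 lay there under 3 other scalings too, where the median was between -0.17 and -0.15. Against the matched controls none passed edgeR's adjusted threshold, 47 did at an unadjusted p under 0.05, and 50 had no overlap between the groups, as did 681 genes in that direction among all tested (5.18%). Their summed level was 72671 to 77106 CPM with GATA1TSS-Guide1, against 80153 to 89175 CPM in the matched controls. Many have processed pseudogenes, so single members are uncertain. The lists for S phase (16 tested, median 0.06), G2 and M phase (16, 0.01), apoptosis regulators (12, -0.03), p53 targets (12, -0.01), interferon response (11, 0.04), cholesterol synthesis (16, -0.01), glycolysis (17, 0.08), immediate early genes (14, 0.13), heat shock and chaperones (12, -0.03) and autophagy with mitochondrial clearance (11, -0.07) held no gene called against the matched controls, and 0 to 4 called in either direction against all 12. The myeloid (8, -0.07) and lymphocyte lists (6, 0.18) held none against the matched controls either, with 3 and 1 called higher against all 12, and COL1A1 was the only called one of 6 fibroblast and epithelial markers (10.7, 20.2 and 11.2 CPM with GATA1TSS-Guide1, against 4.68, 7.85, 7.86 and 7.05 CPM in the matched controls), a call absent against all 12. Over all genes tested, 6.21% were called higher and 5.8% lower against all 12.

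Set directly against GATA1TSS-Guide2, 876 genes were called (6.66%), 445 higher (3.38%) and 431 lower (3.28%) with GATA1TSS-Guide1. This comparison uses no control library but shares the GATA1TSS-Guide1 libraries with those above, and GATA1TSS-Guide2 replicate 2 was the shallowest library of the series (4290343 counts). Of the 17 genes that fell against both control sets, 12 were called higher with GATA1TSS-Guide1 than with GATA1TSS-Guide2, 2 lower and 3 not called. Of the 18 that rose, 12 were called lower than with GATA1TSS-Guide2, 2 higher and 4 not called. KLF1 differed by 0.90 (SE 0.09, edgeR adjusted p = 7.18e-07), MYC by 0.54, RAB3IL1 by 0.79, PSAT1 by 0.69 and ASNS by 0.65, all higher with GATA1TSS-Guide1. CALB1 differed by -1.42, SOSTDC1 by -1.03 and TMEM158 by -0.74, all lower. The 2 on each side that went the other way were ZBTB1 with LOC102723809 (-1.26), and AQP1 (0.89) with SLC4A1 (0.89). For 10 of the 13 genes of amino acid and one-carbon synthesis, and for 4 of the 10 globin and chaperone genes, levels were called higher with GATA1TSS-Guide1, for example PHGDH by 0.93 and HBE1 by 0.49.

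**Figure D5:**
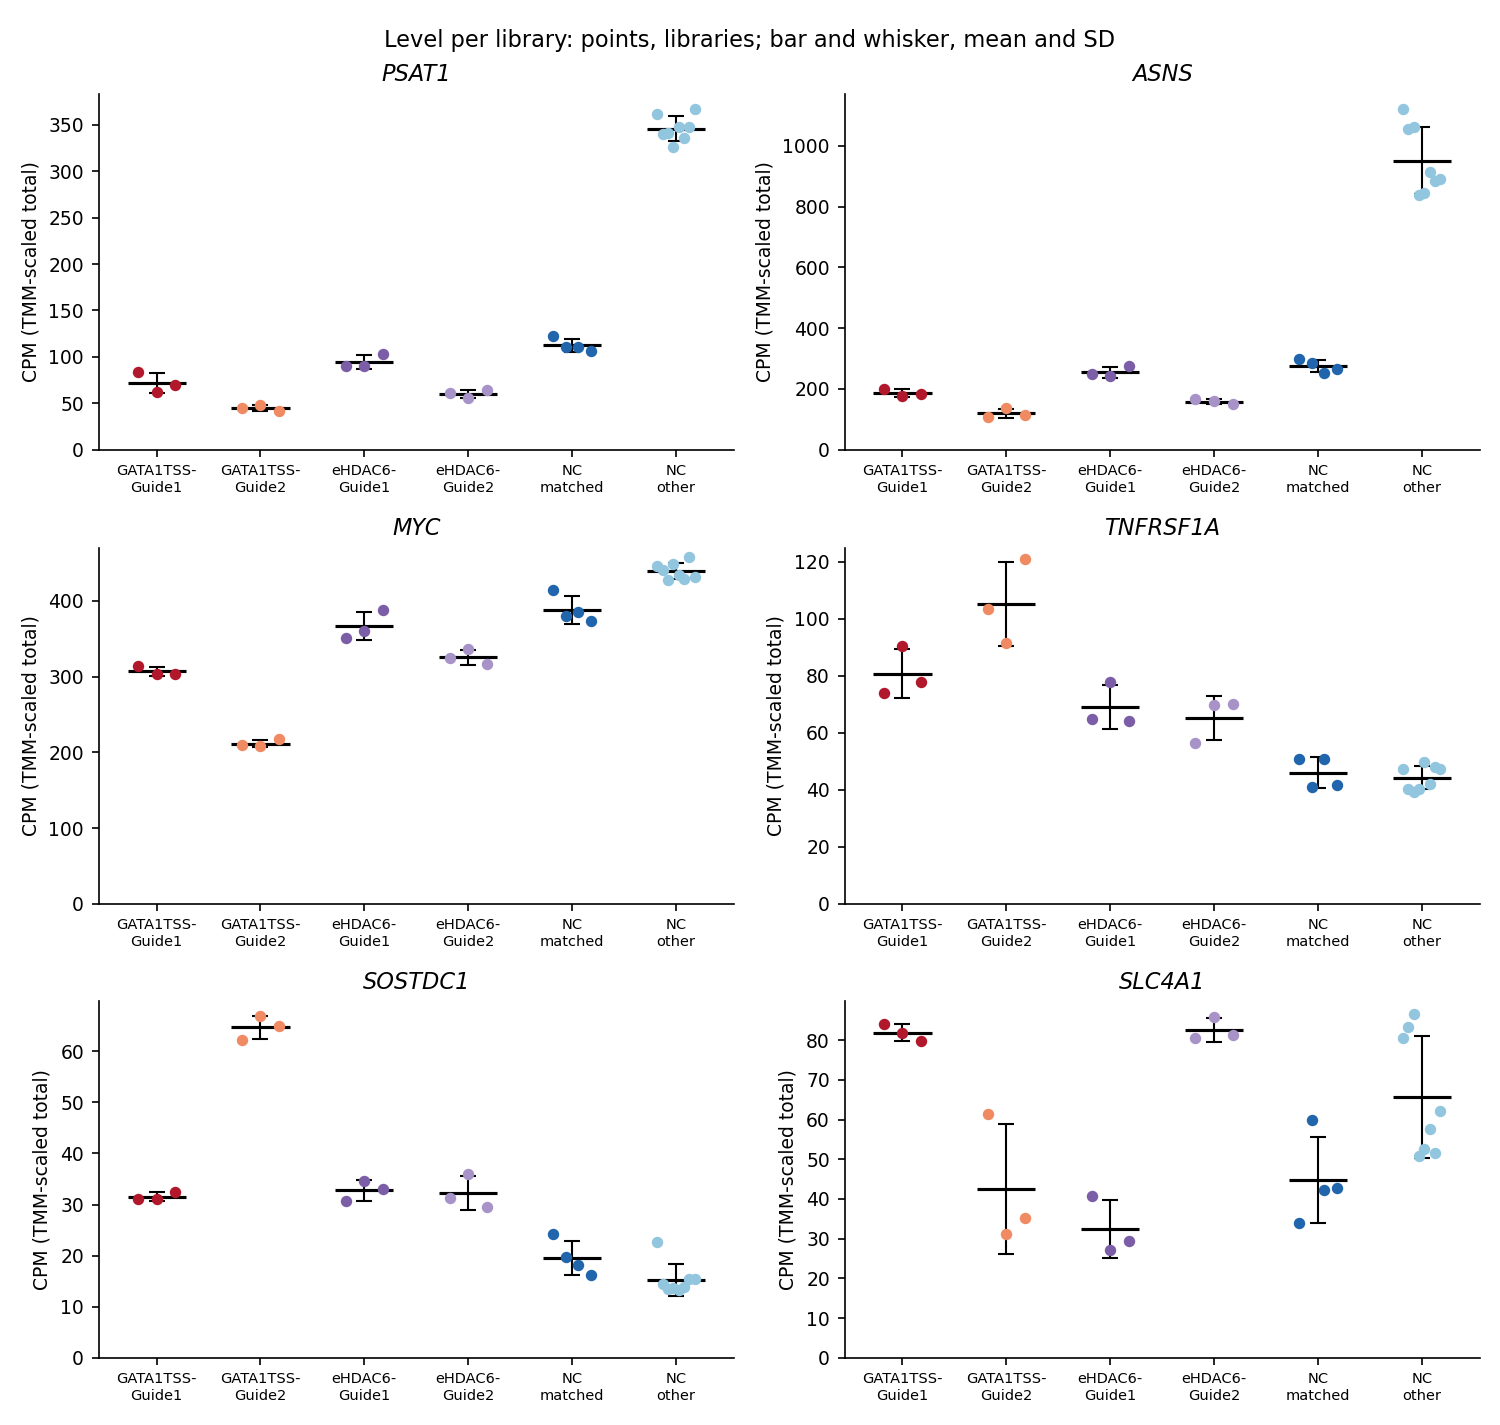
CPM (vertical axis, from 0) of PSAT1, ASNS, MYC, TNFRSF1A, SOSTDC1 and SLC4A1 in each of the 24 libraries (points) by group, with the mean as a bar and the SD as a whisker. MYC with GATA1TSS-Guide1 sits at 304 to 314 CPM, above GATA1TSS-Guide2 and below every NC library, and SLC4A1 at 79.8 to 84.1 CPM, level with eHDAC6-Guide2 and far above eHDAC6-Guide1.

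Against the eHDAC6 sgRNAs, 8 genes were called with edgeR (0.0609%), 2 higher (0.0152%) and 6 lower (0.0456%), with 1104 at an unadjusted p under 0.05 (8.4%) and 44 by DESeq2. HDAC6 was higher with GATA1TSS-Guide1 by 0.72 (SE 0.08, edgeR adjusted p = 5.15e-06), with 211 to 240 CPM, against 122 to 148 CPM (median 140) in the eHDAC6 libraries. MT2A, a metallothionein, was the other higher gene (0.96, edgeR adjusted p = 0.0156). GATA1, ZBTB1 and LOC102723809 were lower, as were PLCB2, a phospholipase C of blood cells (-0.55), CD84, a SLAM family receptor (-0.60), and BMX, a Tec family kinase (-0.88). MT2A, PLCB2, CD84 and BMX were not called against the matched controls and were named after their values were seen. KLF1 differed by -0.15 (edgeR adjusted p = 0.611) and MYC by -0.17 (edgeR adjusted p = 0.313), with GATA1 at 96.1 to 130 CPM with GATA1TSS-Guide1 and 242 to 267 CPM with the eHDAC6 sgRNAs. For KLF1 the GATA1TSS-Guide1 libraries, at 134 to 152 CPM, overlapped eHDAC6-Guide1 (137 to 160 CPM) and lay below eHDAC6-Guide2 (168 to 177 CPM). For PSAT1 they stood at 62.6 to 83.7 CPM, below eHDAC6-Guide1 (90.0 to 103 CPM) and overlapping eHDAC6-Guide2 (55.4 to 64.3 CPM). A p that misses the threshold does not show that these levels are alike.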

How the data were processed

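The authors deposited raw counts per gene symbol for 24 libraries, whole numbers with no normalization, and a file of RefSeq gene models on hg19. The submitters' processing notes name TopHat2 2.0.8, Bowtie2 2.1.0, SAMtools 0.1.19 and Picard, without their roles. Library preparation was strand-specific per the labels' protocols. No source used here names the counting tool or its use of strand. Genes whose exons overlap are therefore uncertain.

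Of 21925 entries, 13147 passed edgeR's filter (minimum count 10, minimum total 15, proportion 0.7, by sgRNA). CPM are counts over TMM-scaled totals. Totals were 13407605 to 20837877 in the 7 libraries, which limits the precision of low values. P-values measure the spread between replicates within the groups of the model, estimated over all 24 libraries. The tests were those of edgeR 4.0.16 under R 4.3.3 (quasi-likelihood F tests, Benjamini-Hochberg over all genes tested, called under 0.05). The model had 1 coefficient per sgRNA, with the first replicates of NC-Guide3 and NC-Guide4 apart from the matched controls, and 14 residual degrees of freedom. SEs were derived from the F statistic. The steps were tested on simulated data. DESeq2 1.42.0, other scalings and filters, a replicate term and leaving out libraries were tried.

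The members, gene lists and alternatives were chosen with earlier results of these data known. Genes named were GATA1, HDAC6, the 12 largest rises and 12 largest falls called against both control sets (mean of at least 5 CPM, groups apart), called genes within 1 Mb of GATA1, up to 4 called members a list, up to 6 genes a direction for the comparisons with GATA1TSS-Guide2 and eHDAC6, and up to 3 uncalled members of 3 lists. Others are said to be named afterwards, as are EPHX2, FMNL1, LUZP1, NMU, S1PR3 and SLC20A1 and the list members given as examples.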

Additional observations from a re-analysis of the deposited data

Results flagged for a closer look

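ZBTB1 differed between the 2 sgRNAs for the same start site, by -1.42 on the log2 scale (GATA1TSS-Guide1 minus GATA1TSS-Guide2, edgeR adjusted p = 7.18e-07), with its mean below that of the matched controls for GATA1TSS-Guide1 and above it for GATA1TSS-Guide2. LOC102723809, which overlaps it on the other strand, differed by -1.26 (edgeR adjusted p = 2.61e-06). AQP1 differed by 0.89 (edgeR adjusted p = 1.39e-05) and SLC4A1 by 0.89 (edgeR adjusted p = 0.00186), with means above that of the matched controls for GATA1TSS-Guide1 and below it for GATA1TSS-Guide2.

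GARS stood at 454 CPM in NC-Guide3 replicate 2, apart from the other 3 matched controls at 405 to 412 CPM. It was 1 of 59 genes looked at for such a gap, and chance sets apart about 1 group in 20. The GARS call was lost without that library, and also without replicate 2 or 3 of GATA1TSS-Guide1.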

How the results depend on the processing

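For GATA1TSS-Guide1 minus matched controls the 46 calls became 114 with no filter on low counts, 83 with DESeq2, 28 with only the 7 libraries in the fit, 1579 with all 12 NC libraries and 3348 with the other 8 as controls. Leaving out 1 library at a time gave 11 to 46. It stayed at 45 to 47 under other scalings and a stricter filter, with a split of 34 higher and 13 lower on library totals. Of the 46 calls, 25 kept call and direction under all alternatives of scaling, filter, model and test, 10 in all leave-one-out fits and 9 in both. For the other comparisons the leave-one-out ranges were 537 to 2152 against all 12 NC libraries, 417 to 782 against GATA1TSS-Guide2, 5 to 15 against eHDAC6 and 0 to 25 between the NC sgRNAs. Against eHDAC6 the 8 became 16 under upper quartile scaling, 44 with DESeq2 and 165 without a filter, and the 0 between NC sgRNAs became 8 with DESeq2 and 66 without a filter. For GATA1TSS-Guide1 minus all NC controls, upper quartile scaling gave 724 higher and 873 lower and library totals 1101 and 597, and for GATA1TSS-Guide1 minus GATA1TSS-Guide2 they gave 352 and 516, and 352 and 511. On library totals the median of erythroid regulators was -0.0079, of apoptosis regulators -0.012 and of all genes 0.022, and it was 0.0031 for all genes with DESeq2 size factors. With the other 8 NC libraries as controls, the sign turned, among the 59 genes followed singly, for PLCB2 (0.15), MYB (0.059), BMX (-0.17), CD84 (0.83), HBE1 (-0.50), HBG2 (-0.50), HBG1 (-0.49), SH3BP2 (-0.22), AXL (-0.092), C17orf99 (-1.12), COL1A1 (-0.14) and CDHR3 (-0.23), and with all 12 for C17orf99 (-0.66), SH3BP2 (-0.0042), HBE1 (-0.33), HBG2 (-0.32), HBG1 (-0.31), CD84 (0.47), PLCB2 (0.039) and ITGA2B (-0.055). The cause of these shifts was not tested.

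Replicate numbers were not shown to pair the libraries: the deviations of same-numbered libraries of GATA1TSS-Guide1 and of NC-Guide3 and NC-Guide4 correlated by -0.16 to 0.07. Deviations were taken from the mean of all replicates of an sgRNA. For NC-Guide3 and NC-Guide4 that mean includes replicate 1, which is not a matched control and lies in the other expression state. The check therefore cannot decide whether the matched controls are paired. A replicate block left 45 genes called, 40 of them among the 46.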
